A study of Mus musculus with 58 samples.

Results

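The respiratory chain and the ATP synthase of the mitochondrial inner membrane were followed at the mRNA level in mouse quadriceps, through 92 nuclear genes of the 18193 genes named by a single symbol on the arrays. Members were taken by symbol: those beginning Nduf, Uqcr, Cox4, Cox5, Cox6, Cox7, Cox8 or Atp5, with Sdha, Sdhb, Sdhc, Sdhd, Cycs and Cyc1. They comprised 34 subunits of complex I, 8 assembly factors of complex I (Ndufaf genes), 4 subunits of complex II, 9 of complex III, cytochrome c, 19 of complex IV and 17 of complex V. A further 8 symbols with these beginnings lay on probe sets shared with another gene and were left out.

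The study measured 34 male mice in 3 experiments. In experiment 1, aged 6 months, 6 FVB wild-type mice were compared with 6 mice each of CUGexp transgenic Line 20b and CUGexp transgenic Line 41, both on the FVB background, with 2 arrays per mouse (430A and 430B). In experiment 2, aged 3 months and on the same 2 array types, 3 Clcn1-null mice, a Clcn1 knockout with BALB background, were compared with 3 BALB wild-type mice. In experiment 3, aged 3 months, 5 Mbnl1-null mice, an Mbnl1 knockout with FVB background, were compared with 5 FVB wild-type mice on the array 430 2.0. CUGexp lines express an expanded CUG repeat RNA, the toxic RNA of myotonic dystrophy, from a transgene driven by the skeletal actin promoter, so the RNA is made in muscle fibres and not in the other tissues affected by the disease. Mbnl1 encodes a splicing regulator sequestered by that RNA, and Clcn1 encodes the muscle chloride channel, whose loss gives myotonia without repeat RNA. All changes were constitutive and no other treatment was given. The labels do not say whether mice of a group came from separate litters, so the p-values measure the spread between these mice. Values are log2 of the deposited intensity, a gene was called at a Benjamini-Hochberg adjusted p under 0.05 in a limma fit over all genes tested, and an error after a change is its standard error (SE) in that fit.

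Complexes I and II pass electrons from NADH and succinate to coenzyme Q, complex III passes them to cytochrome c and complex IV to oxygen. Complexes I, III and IV pump protons as they do so, and complex V uses the proton gradient to make ATP. Slow and fast oxidative fibres of limb muscle are rich in these complexes, and the genes that encode them are known for being transcribed broadly and strongly, with a few subunits of complex IV in muscle-specific isoforms.

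The members were among the brightest genes on the arrays. The median of their mean log2 levels was 13.82, 14.5 and 13.89 in experiments 1, 2 and 3, against 9.93, 9.9 and 8.74 for all genes tested, and 66, 71 and 73 members lay above the level that 90% of all genes stayed under. Of the 92, 88 passed the filter on low values in experiments 1 and 2 and 85 in experiment 3. Cox6b2, Cox7b2, Ndufa4l2 and Ndufb4 passed in no experiment, and Cox4i2, Cox7c and Cox8c also failed in experiment 3. Array medians spanned 398.4 to 437.8 (430A) and 30.2 to 34.39 (430B) intensity units in experiment 1, 298.5 to 317.3 and 22.35 to 27.91 in experiment 2, and 9.559 to 11.62 in experiment 3, so levels were compared within an experiment. Clcn1 read 9.30 to 9.54 in Clcn1-null and 10.25 to 11.27 in BALB wild type (-1.42, SE 0.27). Mbnl1 read 12.90 to 13.20 in Mbnl1-null and 13.76 to 13.88 in FVB wild type (-0.73, SE 0.06). Where the deletions lie relative to these probe sets is not known, so a remaining signal checks nothing.

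Promoters are shown for 4 of the 5 members called higher in both line 20b and Mbnl1-null muscle, in separate sets of mice. The remaining member, Ndufa2, had no promoter entry. The 4 encode an accessory subunit of complex I (Ndufb3), the e and epsilon subunits of ATP synthase (Atp5k, Atp5e) and the supercomplex factor Cox7a2l. Each window runs from 250 bases before to 50 bases after the annotated start in RefSeq (GRCm38.p6), printed in the direction of transcription, with capitals marking matches to the motifs searched. They lie at chr1:58586147-58586446 (plus strand) for Ndufb3, chr5:108434350-108434649 (minus) for Atp5k, chr2:174464052-174464351 (minus) for Atp5e and chr17:83514284-83514583 (minus) for Cox7a2l.
Ndufb3: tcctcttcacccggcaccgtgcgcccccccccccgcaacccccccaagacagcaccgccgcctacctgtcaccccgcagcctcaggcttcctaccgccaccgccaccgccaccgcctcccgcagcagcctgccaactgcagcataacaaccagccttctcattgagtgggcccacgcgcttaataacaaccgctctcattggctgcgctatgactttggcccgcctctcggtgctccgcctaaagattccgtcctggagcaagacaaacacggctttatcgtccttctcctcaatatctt
Atp5k: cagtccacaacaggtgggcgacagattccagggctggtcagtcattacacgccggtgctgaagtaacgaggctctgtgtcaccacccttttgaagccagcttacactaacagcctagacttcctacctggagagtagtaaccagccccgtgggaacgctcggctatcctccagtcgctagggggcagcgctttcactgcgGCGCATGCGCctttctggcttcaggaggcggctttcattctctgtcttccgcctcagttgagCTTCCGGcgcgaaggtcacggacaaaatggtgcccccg
Atp5e: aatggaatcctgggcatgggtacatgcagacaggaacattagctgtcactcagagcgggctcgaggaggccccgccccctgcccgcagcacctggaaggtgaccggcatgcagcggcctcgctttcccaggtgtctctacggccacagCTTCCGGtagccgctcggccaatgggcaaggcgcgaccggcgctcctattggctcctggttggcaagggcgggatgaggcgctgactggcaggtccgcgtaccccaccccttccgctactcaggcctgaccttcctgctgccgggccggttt
Cox7a2l: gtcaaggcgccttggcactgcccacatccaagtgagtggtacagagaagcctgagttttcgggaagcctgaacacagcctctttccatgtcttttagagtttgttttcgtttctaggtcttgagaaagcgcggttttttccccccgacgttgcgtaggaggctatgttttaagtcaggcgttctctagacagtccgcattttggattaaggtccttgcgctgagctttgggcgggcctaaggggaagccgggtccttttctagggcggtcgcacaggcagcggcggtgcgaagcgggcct
The motifs were GCGCANGCG for NRF1, CCGGAAG for ETS factors such as GABPA and AAGATGGCG for YY1, the factors best known for driving these genes, each read on both strands. The Atp5k window held 2 overlapping NRF1 matches, 1 on each strand, and 1 ETS match, and the Atp5e window held 1 ETS match. The Ndufb3 and Cox7a2l windows held none of the 3, which says only that these letters are not in the windows. Across the 75 members matched to RefSeq, with 80 windows, the NRF1 motif was in 27.5% of windows against 6.25% of all 32851 windows. The ETS motif was in 23.8% against 8.86%, and the YY1 motif in 8.75% against 1.4%.

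In line 20b, 17 of the 88 tested members rose and 4 fell against FVB wild type, by at most 0.42 on the log2 scale. Called members were 23.9% of those tested, beside 19.2% of all 12689 genes; higher calls were 9.06% and lower calls 10.2% of all genes. The median member change was 0.04, beside -0.01 for all genes. Complex I had 6 of 33 higher and none lower, complex III 3 of 9 higher, complex IV 2 of 16 higher, and complex V 5 of 17 higher with 1 lower. Complex II had 1 of 4 lower, cytochrome c was lower, and the 8 assembly factors had 1 higher and 1 lower. When each array was shifted to a common median, a scaling alternative, the split became 23 higher and 2 lower for the members and 1364 higher and 1020 lower for all genes, from 1149 and 1290.

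**Figure D1:**
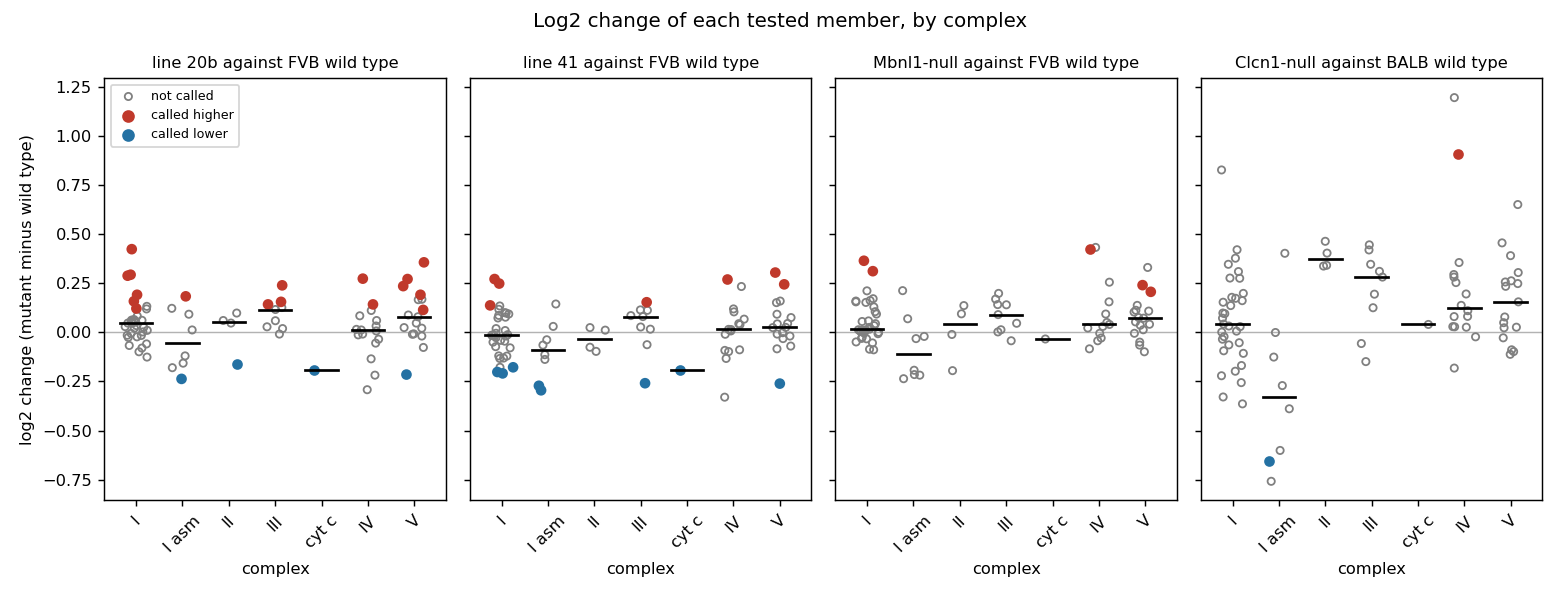
Log2 change of every tested member (circles) by complex in 4 comparisons, mutant minus wild type; filled red and blue points were called higher and lower, bars are medians, and "I asm" stands for the complex I assembly factors. In line 20b the changes run from -0.29 to 0.42, and in Clcn1-null from -0.76 to 1.19 with 2 calls.

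Ndufa2, an accessory subunit in the matrix arm of complex I, changed most in line 20b. Its log2 level was 13.53, 13.57 and 13.68 (lowest, median and highest of 6) in FVB wild type, 13.96, 14.01 and 14.04 in line 20b and 13.67, 13.86 and 13.92 in line 41. Every line 20b mouse was above every wild-type mouse and above every line 41 mouse. The rise was 0.42 (SE 0.04, 34%, adjusted p = 1.83e-06) in line 20b and 0.25 (SE 0.04, 18.7%, adjusted p = 0.0016) in line 41. Line 20b exceeded line 41 by 0.17 (SE 0.04, adjusted p = 0.0236). Without line 41 mouse 2 that difference was 0.16 with an adjusted p of 0.0561, and 2 of the 12 mice ended the call when left out.

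Ndufb7 and Ndufb3 are accessory subunits of the membrane arm. Ndufb7 read 13.59, 13.74 and 13.84 in wild type, 13.92, 14.01 and 14.17 in line 20b and 13.92, 14 and 14.11 in line 41. Both lines were clear of the wild type and lay over each other, with rises of 0.29 (SE 0.05, adjusted p = 0.000677) and 0.27 (SE 0.05, adjusted p = 0.00355). The other Ndufb7 probe set changed by 0.14 and 0.04 and was called in neither line. Ndufb3 read 12.53, 12.71 and 12.75 in wild type, 12.93, 12.96 and 13.04 in line 20b and 12.66, 12.79 and 12.9 in line 41. It rose by 0.29 in line 20b (SE 0.05, adjusted p = 0.000402); the change of 0.09 in line 41 was not called (adjusted p = 0.284), and the 2 lines differed by 0.2 (SE 0.05, adjusted p = 0.0248). That difference lost its call without any of 4 mice, the highest adjusted p being 0.0626 without line 41 mouse 1. Ndufb5, another membrane-arm subunit, rose by 0.16 in line 20b (SE 0.04, adjusted p = 0.00392), from 14.58 to 14.72 in wild type to 14.73 to 14.85. Ndufs4, a matrix-arm subunit needed late in assembly, rose by 0.19 (SE 0.06, adjusted p = 0.0445) at its brightest probe set, a call that 9 of 12 mice ended when left out, with an adjusted p of up to 0.104 without line 20b mouse 4. Another of its 4 probe sets was called lower, by -0.30, so its direction depends on the probe set. Ndufa1 rose by 0.12 (SE 0.04, adjusted p = 0.028); it lies outside the naming rule and is given to complete the 6.

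In line 41, 7 members rose and 8 fell of 88, by at most 0.3 on the log2 scale. Called members were 17% of those tested beside 8.98% of all genes, with 4.15% of all genes higher and 4.83% lower. The median member change was 0.00. The member split became 7 higher and 3 lower with arrays shifted to a common median. Without the wild-type mice 1 and 2, which stood apart on slow fibre and adipocyte markers, 5 rose and 3 fell, beside 5.85% of all genes called.

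Complex I had 3 higher and 3 lower calls in line 41, and 2 higher and none lower without the wild-type mice 1 and 2. Beside Ndufa2 and Ndufb7, Ndufa3 rose by 0.14 (SE 0.04, adjusted p = 0.0448), a call that ended without any of 9 mice, at an adjusted p of up to 0.101 without wild-type mouse 1, and reached 0.22 without wild-type mice 1 and 2 and 0.303 when read on 430B. Ndufb8, a membrane-arm subunit, read 13.67, 13.71 and 13.81 in wild type and 13.41, 13.57 and 13.58 in line 41, with no overlap. It fell by 0.18 (SE 0.05, adjusted p = 0.023); the adjusted p was 0.0586 without wild-type mouse 1, 0.1 without wild-type mice 1 and 2 and 0.61 when read on 430B. Ndufb6 and Ndufa10, both accessory subunits, fell by 0.21 (SE 0.06, adjusted p = 0.0307) and by 0.20 (SE 0.06, adjusted p = 0.0387). Their highest adjusted p without 1 mouse was 0.0721 (line 41 mouse 3) and 0.0874 (line 41 mouse 4), and without the wild-type mice 1 and 2 it was 0.102 and 0.135. Under quantile normalisation that of Ndufb6 was 0.255, and its other probe set changed by -0.02. In line 20b the same 3 subunits changed by -0.08, -0.07 and -0.06 at their brightest probe sets, with no call. The other Ndufa10 probe set was called lower in line 20b, by -0.42, and that of Ndufb8 changed by -0.49 without a call. The core subunits of the matrix arm were not called in either line: Ndufv1, which binds NADH, changed by 0.03 (SE 0.06) and 0.08 (SE 0.06), Ndufs1, an iron-sulphur subunit, by 0.13 and -0.01, and Ndufs7, which carries the last iron-sulphur cluster before coenzyme Q, by -0.03 and -0.12.

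Assembly factors build complex I and are not part of it. Ndufaf6 read 12.4, 12.66 and 12.76 in wild type, 12.31, 12.33 and 12.59 in line 20b and 12.23, 12.32 and 12.47 in line 41. It fell in both lines, by 0.24 (SE 0.07, adjusted p = 0.0223) and by 0.27 (SE 0.07, adjusted p = 0.019), and most mice of both lines lay below most wild-type mice. Under quantile normalisation it was called in neither line (highest adjusted p 0.101 and 0.0918). Ndufaf7, a methyltransferase acting on a core subunit, fell by 0.30 in line 41 (SE 0.09, adjusted p = 0.0473), where 10 of 12 mice ended the call (adjusted p = 0.0973 without wild-type mouse 1, and 0.136 without wild-type mice 1 and 2). Leaving out any 1 line 20b mouse ended it too (adjusted p up to 0.0565). Ndufaf8, a partner of Ndufaf5, rose by 0.18 in line 20b (SE 0.06, adjusted p = 0.0246) and changed by -0.07 in line 41. That rise lost its call without wild-type mouse 2 (adjusted p = 0.0581), without line 20b mouse 3 (0.0563), without wild-type mice 1 and 2 (0.12) and with arrays shifted to a common median (0.123), and its other probe set changed by 0.08. Its values of 13.67 to 13.82 in line 20b lay above both the wild type (13.43 to 13.65) and line 41 (13.25 to 13.57), and the lines differed by 0.25 (SE 0.06, adjusted p = 0.0113).

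Complex II, the succinate dehydrogenase, differed between the lines at Sdha, its flavoprotein. Sdha read 13.69, 13.84 and 13.96 in wild type, 13.61, 13.68 and 13.76 in line 20b and 13.76, 13.87 and 13.95 in line 41. It fell by 0.16 in line 20b (SE 0.05, adjusted p = 0.0187), changed by 0.02 in line 41 (SE 0.05), and was lower in line 20b than in line 41 (-0.18, SE 0.05, adjusted p = 0.021). The last call ended without line 41 mouse 2 (adjusted p = 0.0539) and without 1 other mouse, and both calls ended with arrays shifted to a common median (adjusted p = 0.156 and 0.0916). In line 20b the other Sdha probe set changed by -0.07 against wild type and by -0.15 against line 41, neither called. Sdhb, the iron-sulphur subunit, changed by 0.05 and -0.08 in the lines, and Sdhc and Sdhd, the membrane anchors, by 0.06 and 0.10 in line 20b and by -0.10 and 0.01 in line 41, none called.

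In complex III, 3 small subunits rose in line 20b: Uqcrq by 0.24 (SE 0.07, adjusted p = 0.016), Uqcr11 by 0.15 (SE 0.05, adjusted p = 0.0241) and Uqcrh, the hinge protein that lies outside the naming rule, by 0.14 (SE 0.04, adjusted p = 0.0297). Uqcrq read 12.33, 12.57 and 12.72 in wild type and 12.67, 12.8 and 12.85 in line 20b, with a small overlap. Its other probe set changed by 0.03 and was not called. Uqcr11 also rose by 0.15 in line 41 (SE 0.05, adjusted p = 0.0459), and each of the 12 mice ended that call when left out (adjusted p = 0.0951 without wild-type mouse 6). In line 20b 3 of 12 mice did (adjusted p = 0.0584 without wild-type mouse 6). Uqcrc2, a core protein of the matrix side, read 14.97, 15.01 and 15.07 in wild type, 14.9, 15.03 and 15.1 in line 20b and 14.6, 14.7 and 14.98 in line 41. It fell by 0.26 in line 41 (SE 0.06, adjusted p = 0.00678), changed by -0.01 in line 20b, and differed between the lines by 0.25 (SE 0.06, adjusted p = 0.0122), a difference both of its probe sets showed. Its partner Uqcrc1 changed by 0.02 in each line. The redox subunits were not called: the Rieske protein Uqcrfs1 changed by 0.13 (SE 0.05) and 0.03, and cytochrome c1, Cyc1, by 0.06 and -0.06.

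Cytochrome c (Cycs), the carrier between complexes III and IV, read 14.81, 15 and 15.16 in wild type, 14.73, 14.78 and 14.95 in line 20b and 14.7, 14.79 and 14.91 in line 41. The groups overlapped. It was lower by 0.19 in each line (SE 0.06, adjusted p = 0.0265 and 0.0439). In line 20b 5 of 12 mice ended the call and in line 41 9 of 12, the highest adjusted p being 0.0667 and 0.103, both without wild-type mouse 1. Under quantile normalisation it was 0.114 and 0.183, and without wild-type mice 1 and 2 it was 0.123 and 0.175.

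Of complex IV, the cytochrome c oxidase, 2 members rose in line 20b. Cox7a2l, which joins complexes III and IV into supercomplexes, read 11.54, 11.68 and 11.79 in wild type, 11.65, 11.97 and 12.09 in line 20b and 11.73, 11.89 and 12.12 in line 41. One line 20b mouse lay within the wild-type range and the other 5 above it. The rise was 0.27 (SE 0.08, adjusted p = 0.0153), and all 3 of its probe sets were called higher, by 0.27 to 0.38. Without the wild-type mice 1 and 2 the rise in line 20b was 0.22 and was not called (adjusted p = 0.089). The change of 0.23 in line 41 was not called (SE 0.08, adjusted p = 0.0611). Cox7a1, the isoform of heart and skeletal muscle, rose by 0.14 (SE 0.05, adjusted p = 0.0458), a call that 9 of 12 mice ended (adjusted p = 0.104 without wild-type mouse 4). Ndufa4, once placed in complex I and now counted with complex IV, read 13.72, 13.76 and 13.94 in wild type, 13.7, 13.89 and 14.01 in line 20b and 13.99, 14.08 and 14.15 in line 41. It rose by 0.27 in line 41 (SE 0.05, adjusted p = 0.00347) with no overlap. The change of 0.08 in line 20b was not called, and line 20b was lower than line 41 by 0.19 (-0.19, SE 0.05, adjusted p = 0.0433), where 10 of 12 mice ended the call (adjusted p = 0.0914 without line 41 mouse 4, and 0.144 with arrays shifted to a common median).

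The larger nuclear subunits of complex IV were not called in either line: Cox4i1 changed by -0.01 and -0.09, Cox5a by 0.01 and 0.04 and Cox5b by 0.06 and 0.02. The isoform partners were not called either. Cox6a2 and Cox8b, the muscle isoforms, changed by -0.01 and -0.22 in line 20b and by 0.10 and -0.13 in line 41. Cox6a1 and Cox8a, the forms of other tissues, had wide spreads in wild type (13.64 to 15.17 and 11.12 to 12.27), with the highest values of both in the wild-type mice 1 and 2. Those mice also led the wild types in the mean of the adipocyte marker list, at 12.54 and 13.05, the remaining wild types lying at 10.69 to 11.22. The line 41 mouse with the highest Cox6a1, mouse 5 at 15.17, had the highest adipocyte mean of its group, 12.15. In whole muscle, more cells of a type and more RNA per cell cannot be told apart, and the part of fat in these values was not tested.

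**Figure D2:**
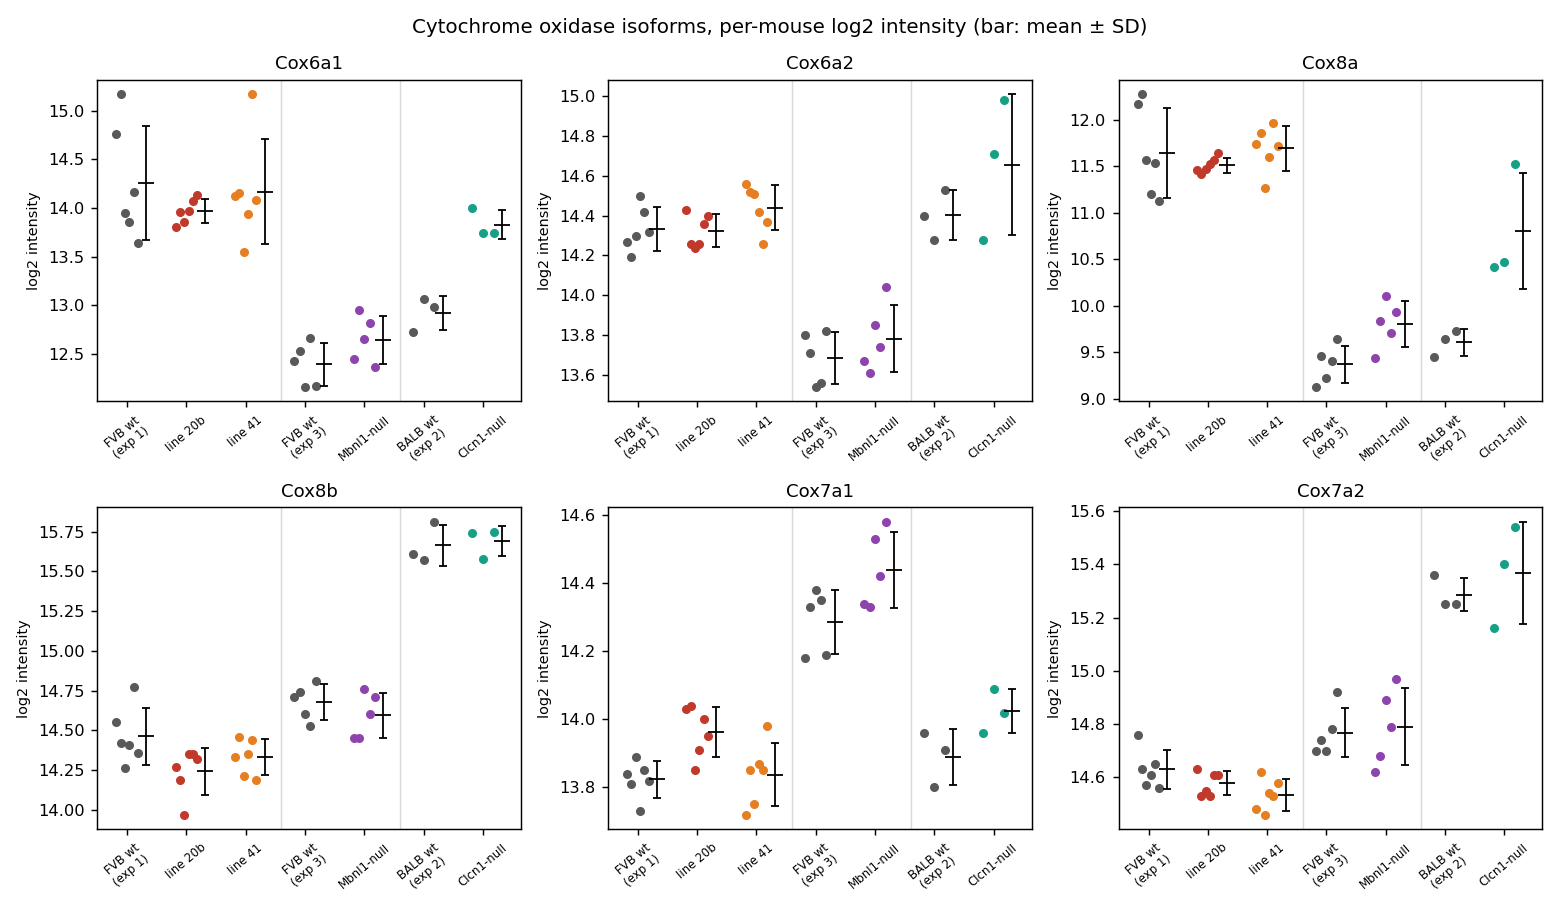
Log2 intensity of 6 subunits of cytochrome oxidase in every mouse, by group; points are mice and bars are the mean ± SD. Grey vertical lines part the 3 experiments, whose levels are not on a common scale. Cox6a1 in Clcn1-null (13.74 to 14) lies above BALB wild type (12.72 to 13.06).

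Complex V, the ATP synthase, had 35.3% of its tested members called in line 20b, beside 19.2% of all genes. Without the wild-type mice 1 and 2 the shares were 29.4% and 15.5%. The count includes Atp5g2, whose probe sets disagree. Atp5g2, one of 3 genes for the c-ring protein that turns with the proton flow, read 12.44, 12.52 and 12.85 in wild type, 12.84, 12.89 and 13.1 in line 20b and 12.67, 12.89 and 13.02 in line 41. It rose by 0.36 (SE 0.08, adjusted p = 0.00256) and 0.30 (SE 0.08, adjusted p = 0.017, and 0.0805 without wild-type mice 1 and 2) at its brightest probe set. Its other probe set went the other way, by -0.73 (called lower) and -0.61 (not called), so no direction is given for the gene. The other c-ring genes were not called: Atp5g1 changed by 0.17 and 0.16 and Atp5g3 by -0.02 and 0.04. Atp5l, the g subunit of the membrane sector, read 13.49, 13.6 and 13.85 in wild type and 13.83, 13.91 and 14.03 in line 20b, a rise of 0.27 (SE 0.06, adjusted p = 0.00187). Its change of 0.15 in line 41 was not called.

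Atp5e, the epsilon subunit of the central stalk, rose in both lines. It read 13.22, 13.39 and 13.51 in wild type, 13.44, 13.65 and 13.67 in line 20b and 13.39, 13.67 and 13.74 in line 41, with overlap. The rises were 0.23 (SE 0.07, adjusted p = 0.0229) and 0.24 (SE 0.07, adjusted p = 0.0343), with a difference of -0.01 between the lines (SE 0.07). Without 1 mouse the adjusted p reached 0.0562 (wild-type mouse 4) and 0.0764 (line 41 mouse 4). Atp5k, the e subunit, read 13.58, 13.63 and 13.79 in wild type, 13.8, 13.85 and 13.92 in line 20b and 13.59, 13.67 and 13.88 in line 41. It rose by 0.19 in line 20b (SE 0.05, adjusted p = 0.0169) with no overlap, and changed by 0.03 in line 41. Atp5h, the d subunit of the stator, rose by 0.11 in line 20b (SE 0.04, adjusted p = 0.0411) and exceeded line 41 by 0.13 (SE 0.04, adjusted p = 0.0435); 9 and 7 of 12 mice ended these calls (adjusted p up to 0.0969 and 0.0964), as did eBayes without trend (0.112 and 0.121), and the rise had an adjusted p of 0.144 without wild-type mice 1 and 2.

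Atp5pb, the b subunit that holds the stator in the membrane, fell in both lines. It read 14.74, 14.77 and 14.81 in wild type, 14.52, 14.53 and 14.61 in line 20b and 14.37, 14.5 and 14.63 in line 41, so every mouse of both lines was below every wild-type mouse. The fall was -0.21 in line 20b (SE 0.04, adjusted p = 0.00134) and -0.26 in line 41 (SE 0.04, adjusted p = 0.000719). The other Atp5pb probe set changed by -0.15 and -0.19 and was called in neither line. The catalytic subunits Atp5a1 and Atp5b changed by -0.01 and -0.08 in line 20b and by 0.05 and -0.01 in line 41, none called.

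A list of 14 central subunits was read together: Ndufs1, Ndufv1, Ndufs7, Sdha, Sdhb, Uqcrc1, Uqcrfs1, Cyc1, Cycs, Cox4i1, Cox5a, Cox5b, Atp5a1 and Atp5b. The list was chosen with earlier results known and leaves out other core subunits such as Uqcrc2, Ndufs3, Ndufs8 and Ndufv2. None was called higher in either line, beside 9.06% and 4.15% of all genes. In line 20b 2 of 14 were lower (Sdha and Cycs), with a median change of 0.01. The difference from the other 74 members was not tested. In line 41 1 of 14 was lower. Both lines were set against the same 6 wild-type mice, so they share their controls. Between the lines themselves, 5 members were higher and 2 lower in line 20b (7.95% of 88, beside 6.29% of all genes, 3.59% higher and 2.7% lower): Uqcrc2, Ndufaf8, Ndufb3, Ndufa2 and Atp5h, then Sdha and Ndufa4. With arrays shifted to a common median 8 were higher and none lower.

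In Mbnl1-null muscle 5 of the 85 tested members rose and none fell against FVB wild type: Cox7a2l, Ndufb3, Ndufa2, Atp5k and Atp5e. Called members were 5.88% of those tested beside 16.2% of all 9021 genes (8.06% higher, 8.18% lower). The median member change was 0.04, beside -0.01 for all genes, and the members ran from -0.24 to 0.43.

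Cox7a2l read 11.71, 11.66, 12.02, 11.84 and 11.91 in the Mbnl1-null mice and 11.44, 11.37, 11.21, 11.42 and 11.58 in wild type. Every Mbnl1-null mouse was above every wild-type mouse. The rise was 0.42 (SE 0.09, 34.1%, adjusted p = 0.00843), and its 3 probe sets rose by 0.41 to 0.44, all called. Ndufb3 read 12.86, 12.88, 13.14, 12.87 and 13.11 against 12.7, 12.57, 12.61, 12.58 and 12.56, again with no overlap, a rise of 0.36 (SE 0.07, 28.7%, adjusted p = 0.00589). Ndufa2 read 14.12, 13.92, 14.15, 13.99 and 14.07 against 13.74, 13.81, 13.79, 13.66 and 13.68, a rise of 0.31 (SE 0.06, 24.1%, adjusted p = 0.00466) with no overlap.

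Of the ATP synthase, Atp5k read 13.78, 13.74, 13.79, 13.93 and 13.83 in Mbnl1-null against 13.53, 13.56, 13.69, 13.6 and 13.48, a rise of 0.24 (SE 0.06, 18.1%, adjusted p = 0.0159) with no overlap. It was not called with arrays shifted to a common median (adjusted p = 0.076). Its 3 probe sets rose by 0.18 to 0.24, and 1 of them was called. Atp5e read 14.06, 13.88, 14.15, 14.03 and 14.17 against 13.85, 13.84, 13.85, 13.8 and 13.92, with 1 Mbnl1-null mouse inside the wild-type range. Its rise of 0.21 (SE 0.06, 15.3%, adjusted p = 0.0426) lost its call without any of 8 of the 10 mice (adjusted p = 0.0949 without Mbnl1-null mouse 3).

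**Figure D3:**
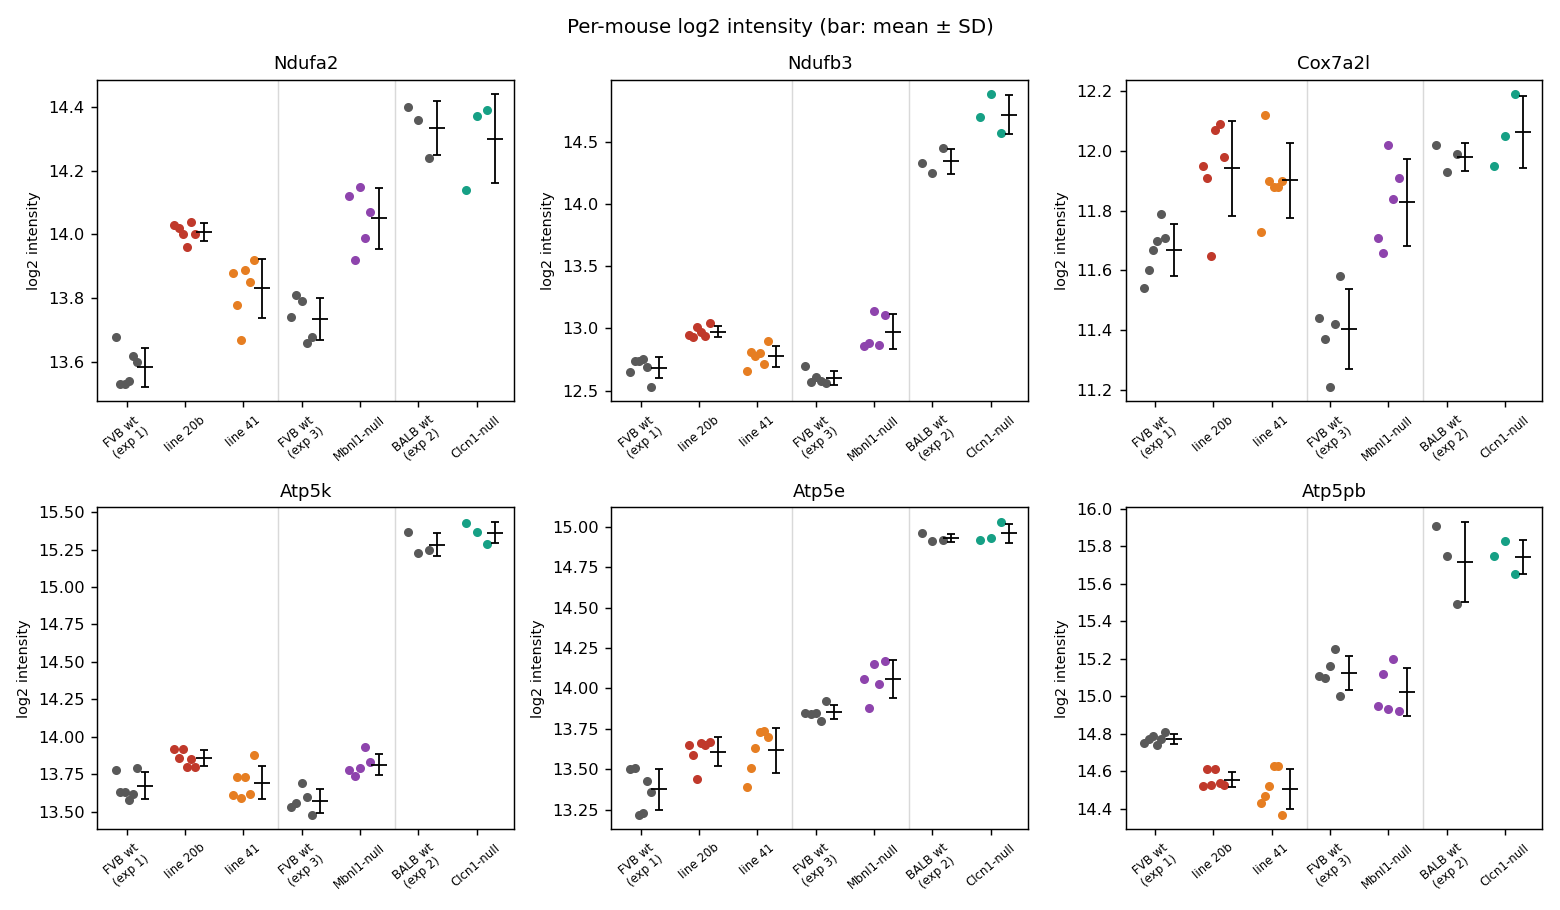
Log2 intensity of 6 members in every mouse, by group; points are mice and bars are the mean ± SD. Grey vertical lines part the 3 experiments, whose levels are not on a common scale. Ndufa2 in line 20b (13.96 to 14.04) and in Mbnl1-null (13.92 to 14.15) lies above its own wild type, and Atp5pb in both CUGexp lines lies below it (14.74 to 14.81).

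The Mbnl1-null experiment used other wild-type mice than the CUGexp experiment, so the members called in line 20b could be read there. All 17 members higher in line 20b had a positive change in Mbnl1-null, from 0.07 to 0.42 with a median of 0.17. Of all genes higher in line 20b and tested there, 90.8% had a positive change. The 5 called higher in both made up 29.4% of the line 20b risers and 100% of the Mbnl1-null risers. Over all genes the corresponding shares were 40.5% and 58%. The 4 members lower in line 20b were all negative in Mbnl1-null, from -0.20 to -0.03, and none was called. Of all genes lower in line 20b, 86.8% were negative there and 36.6% were called lower. Of the 4, Sdha changed by -0.20 (SE 0.07, adjusted p = 0.0619), with every Mbnl1-null mouse (13.06 to 13.33) below every wild-type mouse (13.34 to 13.5), Ndufaf6 by -0.19, Atp5pb by -0.10 and Cycs by -0.03. Of the 7 members higher in line 41, 6 were positive in Mbnl1-null and 2 were called (Ndufa2 and Atp5e), beside 83.1% positive and 41.3% called of all genes higher in line 41. Of the 8 lower in line 41, 6 were negative and none was called, beside 78.7% negative and 30.7% called of all genes lower there.

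Other members in Mbnl1-null did not pass the threshold at their brightest probe set. Ndufa7 had 1 of its 5 probe sets called higher in Mbnl1-null (changes of 0.11 to 0.36) and 1 of 5 in line 20b (0.06 to 0.3). Ndufa10 and Ndufab1 each had 1 probe set called lower in Mbnl1-null. Cox8a changed by 0.43 (SE 0.14, adjusted p = 0.0514), with its second probe set called at 0.37. Atp5g2 changed by 0.33 (SE 0.11, adjusted p = 0.0627), Uqcrq by 0.20 (SE 0.07, adjusted p = 0.0742), Ndufaf8 by 0.21 (SE 0.08, adjusted p = 0.109) and Ndufb7 by 0.15 (SE 0.09, adjusted p = 0.262). Of the 14 central subunits none was called, 7 were positive, and their changes ran from -0.20 to 0.14. The 32 tested members not named by rule ran from -0.24 to 0.17, with a lowest adjusted p of 0.0692.

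In Clcn1-null muscle 1 member rose and 1 fell of 88 tested, 2.27% beside 5.49% of all 12752 genes (2.34% higher, 3.15% lower). Changes were larger and less precise than in the other comparisons: members ran from -0.76 to 1.19, with a median SE of 0.13 against 0.06 in experiment 1. The median change was 0.10, beside 0.02 for all genes.

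Cox6a1, the form of the complex IV subunit found in most tissues, read 14, 13.74 and 13.74 in Clcn1-null and 12.72, 13.06 and 12.98 in BALB wild type. The groups did not overlap, and the rise was 0.91 (SE 0.14, 87.5%, adjusted p = 0.0236), with both probe sets called. Its muscle partner Cox6a2 read 14.28, 14.71 and 14.98 against 14.4, 14.28 and 14.53, a change of 0.25 (SE 0.19) within the spread. Cox8a, likewise the form of most tissues, read 10.42, 10.47 and 11.52 against 9.45, 9.64 and 9.73. Its change of 1.19 was the largest of any member, and was not called (SE 0.32, adjusted p = 0.0937), while its muscle partner Cox8b changed by 0.03 (SE 0.10). Of the adipocyte markers, 8 of 13 tested were called higher and none lower, with a median change of 1.88. The mean of that list was 11.57 to 11.67 in Clcn1-null against 9.96 to 10.63 in BALB wild type. In every mouse 13 of its 15 genes were at or above the detection floor. The macrophage and leukocyte list had 2 of 10 higher and none lower, with means of 9.65 to 9.78 against 8.87 to 9.36. The part of fat or of these other cells in the Cox6a1 and Cox8a values was not tested.

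Ndufaf5, which modifies a core subunit during assembly of complex I, read 11.81, 12.08 and 11.99 in Clcn1-null and 12.71, 12.53 and 12.62 in wild type. It fell by 0.66 (SE 0.13, adjusted p = 0.0415), with no overlap. Of the other Ndufaf genes, 6 of 7 were also negative, beside 5954 of all 12752 genes. Ndufaf6 changed by -0.76 (SE 0.27, adjusted p = 0.183) and Ndufaf8 by -0.60 (SE 0.30, adjusted p = 0.317), each with 1 low Clcn1-null mouse, mouse 3, at 11.88 and 12.75. Leaving out any of 5 of the 6 mice ended the calls of Cox6a1 and of Ndufaf5, with an adjusted p of up to 0.111 and 0.199 without BALB wild-type mouse 1.

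All 4 subunits of complex II were positive in Clcn1-null, by 0.34 to 0.46, and none was called. Sdhb read 14.85, 15.13 and 15.24 against 14.63, 14.48 and 14.72 (0.46, SE 0.14, adjusted p = 0.116), and Sdha 14.78, 14.86 and 15.16 against 14.54, 14.6 and 14.63 (0.34, SE 0.12, adjusted p = 0.19). Both had every Clcn1-null mouse above every wild-type mouse, but how many of all genes separate this way with 3 mice per group was not counted. Ndufv1 read 14.55, 14.51 and 15.02 against 13.98, 13.68 and 13.94, a change of 0.83 (SE 0.18, adjusted p = 0.0525), and one of its other 2 probe sets was called, at 0.74. Ndufs7 changed by 0.42 (SE 0.10, adjusted p = 0.0624), Atp5g2 by 0.65 (SE 0.24, adjusted p = 0.195), Atp5g1 by 0.46 (SE 0.17, adjusted p = 0.191), Uqcrq by 0.44 (SE 0.13, adjusted p = 0.112) and Uqcrc1 by 0.42 (SE 0.17, adjusted p = 0.229). Of the 14 central subunits 13 were positive and none was called, with a median of 0.28, and Cox5a was the exception at -0.18. Over all genes, 6798 of 12752 were positive. When arrays were weighted by their quality, 21 members were called higher and 3 lower, beside 30.1% of all genes.

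The 5 members that rose in both line 20b and Mbnl1-null were not called in Clcn1-null: Ndufa2 changed by -0.04 (SE 0.11), Cox7a2l by 0.08 (SE 0.12), Atp5k by 0.08 (SE 0.09), Atp5e by 0.03 (SE 0.08) and Ndufb3 by 0.38 (SE 0.12, adjusted p = 0.142). The difference between the experiments was not tested, since strain and scale differ. Of the 17 line 20b risers, 11 were positive and 6 negative in Clcn1-null, with a median of 0.08. Over all genes higher in line 20b, 52% were positive there.

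The mean log2 level over the subunits and cytochrome c moved little. It was 13.61 to 13.67 in FVB wild type of experiment 1, 13.61 to 13.73 in line 20b and 13.57 to 13.69 in line 41, so the groups overlapped. In experiment 3 it was 13.71 to 13.81 in wild type and 13.69 to 13.93 in Mbnl1-null. In experiment 2 it was 14.1 to 14.22 in BALB wild type and 14.25 to 14.37 in Clcn1-null, with no overlap. The slow fibre list moved far more: 7 of 9 genes were called lower and 1 higher in Clcn1-null (median -2.42). In Mbnl1-null 7 of 9 were called lower and none higher (median -3.19). The list holds Myh2 beside genes of slow fibres. The slow fibre mean ran from 10.8 to 12.04 in Clcn1-null against 13.48 to 13.81 in its wild type, and from 8.24 to 11.35 in Mbnl1-null against 12.36 to 12.79. In experiment 1 the wild-type mice 1 and 2 stood apart, their slow fibre means being 11.4 and 9.36 where the remaining wild types had 13.17 to 13.79. With all wild-type mice none of the 9 slow fibre genes was called (medians 0.26 in line 20b and 0.78 in line 41). Leaving out mice 1 and 2 made all 9 negative in both lines (medians -0.78 and -0.23). Then 2 were called lower in line 20b and none in line 41. Without these 2 mice 12 members were higher and 3 lower in line 20b, beside 15.5% of all genes called, and 6 calls ended: Cox7a2l (adjusted p = 0.089), Cycs (0.123), Atp5h (0.144), Cox7a1 (0.106), Ndufaf8 (0.12) and Uqcrh (0.0806). In line 41, 7 of the 15 calls held. The part of fibre type in the members' changes was not tested. Adipocyte markers were called lower in line 20b for 8 of 14 and endothelial and mural markers for 12 of 21, and in line 41 for 1 and 10. Without the wild-type mice 1 and 2 the adipocyte counts were 2 and 0 (medians -0.61 and -0.01, from -1.02 and -0.40) and the endothelial and mural counts 9 and 9. The part of these cells was not tested. The fast fibre mean was 16.09 to 16.31 over experiment 1 and 15.59 to 15.9 over experiment 3. In experiment 2 it was 15.44 to 16.15 in Clcn1-null, below the 16.2 to 16.44 of BALB wild type, with 1 of 10 genes called lower. The skeletal muscle marker mean there was 15.81 to 16.43 against 16.2 to 16.4, with overlap. The part of this in the Clcn1-null subunit levels was not tested.

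**Figure D4:**
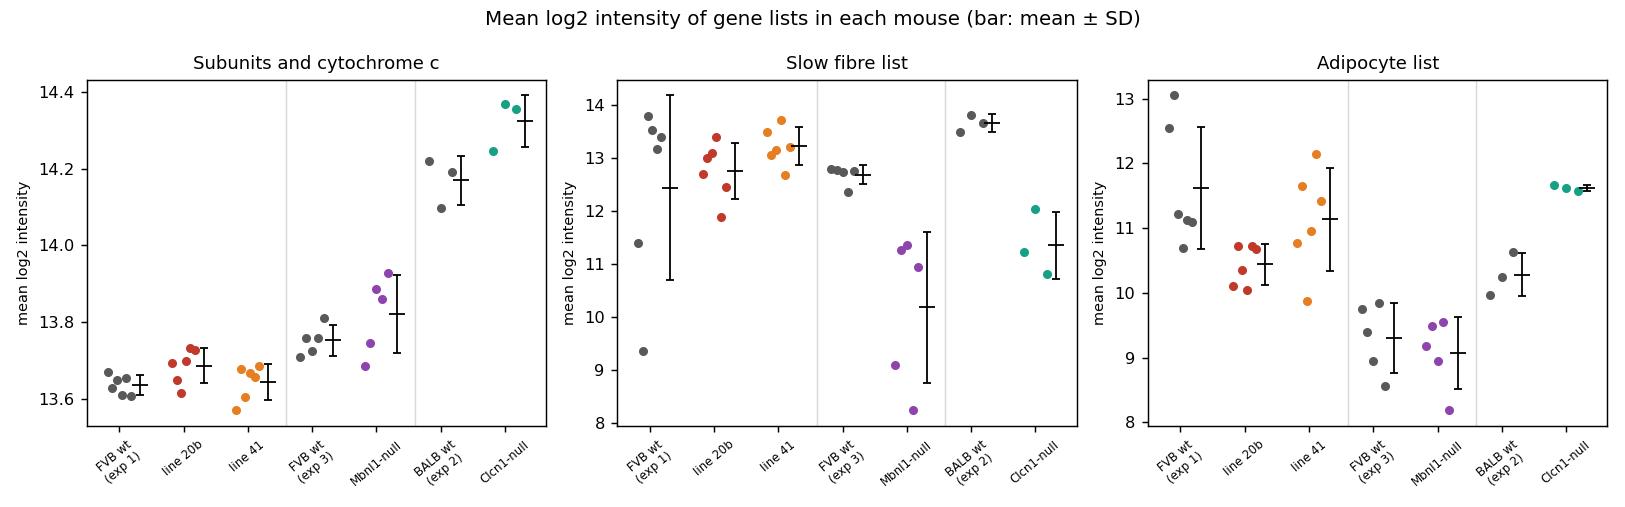
Mean log2 intensity of 3 gene lists in every mouse, by group; points are mice, bars are the mean ± SD, and the vertical scales differ between panels. The subunit mean spans 13.57 to 13.73 in experiment 1, while the slow fibre mean of wild-type mouse 2 is 9.36.

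Other genes around the chain were read from lists by function. Of 7 tested enzymes that feed coenzyme Q beside complexes I and II, 5 fell and none rose in line 20b: Gpd2, the mitochondrial glycerol phosphate dehydrogenase, by 0.57 (SE 0.08, adjusted p = 3.71e-05), Sqor, which oxidises sulphide, by 0.49 (SE 0.07, adjusted p = 0.0001), and Etfa, Etfb and Etfdh, which take electrons from fatty acid oxidation, by 0.20 to 0.23. In line 41 Sqor fell by 0.45 (SE 0.07, adjusted p = 0.000756) and was the single call. Both Gpd2 and Sqor were also lower in Mbnl1-null (-0.86, SE 0.12, adjusted p = 0.001, and -0.57, SE 0.14, adjusted p = 0.0156) and in Clcn1-null (-1.15, SE 0.19, adjusted p = 0.0284, and -0.63, SE 0.12, adjusted p = 0.0407). Prodh, proline dehydrogenase, rose by 1.97 in Clcn1-null (SE 0.29, adjusted p = 0.0207). Called shares of this list were 71.4% in line 20b and 14.3% in line 41, beside 19.2% and 8.98% of all genes. In Mbnl1-null and Clcn1-null they were 28.6% and 42.9%, beside 16.2% and 5.49%. Without the wild-type mice 1 and 2, 2 of the 7 were called lower in line 20b, 28.6% beside 15.5% of all genes.

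A further list held assembly factors of complexes I to V other than the Ndufaf genes. Of these, 6 of 38 rose and 3 fell in line 20b, and 4 rose and 3 fell in line 41. In Mbnl1-null 2 of 37 rose and 2 fell, and in Clcn1-null 1 of 39 fell. In Clcn1-null 29 of the 39 were negative, with a median of -0.21. The called shares were 23.7%, 18.4%, 10.8% and 2.56%, beside 19.2%, 8.98%, 16.2% and 5.49% of all genes. Cox19, which handles copper for complex IV, rose in line 20b (0.47, SE 0.09, adjusted p = 0.00081), line 41 (0.30, SE 0.09, adjusted p = 0.0409) and Mbnl1-null (0.51, SE 0.15, adjusted p = 0.0378). Cox11, another copper factor, fell in both lines (-0.41 and -0.36, SE 0.08, adjusted p = 0.000864 and 0.00626). Of the coenzyme Q synthesis genes, Coq7 rose in line 20b (0.32, SE 0.06, adjusted p = 0.00101) and Mbnl1-null (0.41, SE 0.10, adjusted p = 0.0195), Coq3 and Coq5 fell in both lines, and Coq8a rose by 1.47 in Clcn1-null (SE 0.13, adjusted p = 0.00542). Among 18 regulators of these genes tested in experiment 1, Ppargc1b, a coactivator, rose in line 20b (0.66, SE 0.14, adjusted p = 0.00276) and in Mbnl1-null (0.85, SE 0.18, adjusted p = 0.00736). Gabpa, the factor of the ETS motif, fell in line 20b (-0.33, SE 0.09, adjusted p = 0.0169), and the nuclear receptor Ppara fell in line 41 (-0.52, SE 0.13, adjusted p = 0.0164). Among carriers, Vdac3, a pore of the outer membrane, fell by 0.22 in both lines (SE 0.05, adjusted p = 0.00328 and 0.0076), Ckmt2, the mitochondrial creatine kinase of muscle, fell by 0.27 in line 20b (SE 0.07, adjusted p = 0.0153), and Slc25a5, an ATP exporter, rose by 0.67 in Clcn1-null (SE 0.12, adjusted p = 0.0324). Called shares of the coenzyme Q synthesis genes, regulators and carriers were 25%, 11.1% and 25% in line 20b, beside 19.2% of all genes. They were 25%, 5.56% and 8.33% in line 41, beside 8.98%. In Mbnl1-null they were 27.3%, 5.88% and 0%, beside 16.2%, and in Clcn1-null 8.33%, 0% and 8.33%, beside 5.49%. Of the subunits encoded by mitochondrial DNA, 1 was on a tested probe set, and it was not called in any comparison.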

How the data were processed

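Quadriceps RNA of 34 mice was hybridised to 58 Affymetrix arrays. The deposited values are linear probe set intensities that the authors made with GCRMA, per the submitters' processing notes; its settings, and which arrays were normalised together, are not given in the sources used here. The deposited intensities were put on the log2 scale here. Probe sets with 1 symbol in GEO's platform annotation were kept (34945 of 45037), and the brightest per gene was used, the 430A one where both arrays held the gene. A gene was tested when it reached log2 5 (intensity 32) in at least as many mice as the smallest group. The groups of 1 experiment at a time entered a linear model of 1 mean per group (R 4.3.3, limma 3.58.1, lmFit and eBayes with trend). Its two-sided p-values received the Benjamini-Hochberg adjustment across every gene that passed. The fit was tested on simulated data. The members and lists were chosen with earlier results of these data known. Named were called members (up to 12 per direction and comparison), 14 central subunits, tissue isoforms, members called the same way in separate experiments, members with disagreeing probe sets, Clcn1 and Mbnl1, and up to 3 called genes per list. Promoters came from RefSeq (GRCm38.p6). Alternatives changed the scaling, filter, probe set, weights, eBayes and mice. Arrays give no counts, so mouse numbers limit the precision.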

Additional observations from a re-analysis of the deposited data

Results flagged for a closer look

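Among 271 groups of a named member and 30 groups of a complex mean, 16 held a mouse whose gap to its nearest neighbour was large for the group's range; chance gives such a gap in about 1 in 20 groups. In the FVB wild type of experiment 1, mouse 3 was high for Atp5g1 (14.21, others 13.81 to 13.92) and Ndufa5 (15.14, others 15.01 to 15.04) and low for Ndufa7 (13.01, others 13.17 to 13.27). Mouse 1 of that group was high for Ndufb8 (13.81, others 13.67 to 13.72) and mouse 6 was low for Uqcr11 (13.02, others 13.17 to 13.21).

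In line 20b, mouse 5 was high for Ndufa10 (13.31, others 13.09 to 13.16) and Ndufaf6 (12.59, others 12.31 to 12.34), and mouse 3 was low for Uqcr11 (13.14, others 13.32 to 13.38). In line 41, mouse 5 was high for Cox6a1 (15.17, others 13.55 to 14.15). Low values stood in mouse 2 for Ndufab1 (13.63, others 13.87 to 13.93), mouse 3 for Ndufaf7 (9.82, others 10.28 to 10.43) and mouse 1 for Ndufb8 (13.41, others 13.55 to 13.58). Line 41 mouse 1 also had a low mean over complex V (14.119, others 14.216 to 14.259). In the FVB wild type of experiment 3, mouse 5 was low for Ndufb5 (14.67, others 14.89 to 14.95) and high for Sdhb (14.31, others 14.03 to 14.11), and mouse 1 was low for Ndufs4 (12.09, others 12.27 to 12.31).

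For 7 members the limma test of line 20b against line 41 was itself called. Line 20b was higher for Uqcrc2 (0.25), Ndufaf8 (0.25), Ndufb3 (0.2), Ndufa2 (0.17) and Atp5h (0.13), and lower for Ndufa4 (-0.19) and Sdha (-0.18).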

How the results depend on the processing

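The count of called members was within 1.5 times its value for line 20b (21) in every alternative run, and leaving out 1 mouse gave 15 to 23. For line 41 (15) it was 9 under quantile normalisation and 8 without wild-type mice 1 and 2, and 9 to 15 without 1 mouse. For line 20b against line 41 (7) it was 4 with eBayes without trend and 3 to 9 without 1 mouse. For Clcn1-null (2) it was 24 with array weights, 1 under quantile normalisation, 1 with no filter and 0 to 4 without 1 mouse. Leaving out any 1 of the 5 mice other than Clcn1-null mouse 3 gave 0 limma calls, with 9 to 27 members at an unadjusted p under 0.05. A group left with 2 mice rests on the pooled spread. For Mbnl1-null (5) it was 14 with array weights, 8 under quantile normalisation, 3 with a median shift and 4 to 8 without 1 mouse. Deviations of same-numbered mice correlated at -0.18 to 0.35, -0.17 to 0.07 and 0.02 to 0.43 in experiments 1, 2 and 3, and 7 of 18, 1 of 3 and 3 of 5 pairs matched best on their own number, so the numbers were not taken to pair the mice. With a replicate block the counts were 4 for line 20b against line 41, 0 for Clcn1-null (10 at an unadjusted p under 0.05) and 9 for Mbnl1-null. The cause of these moves was not tested. Of 48 calls of named members, 19 held in every alternative and none reversed. That count cannot show whether other probe sets of a gene go the other way. In line 20b Atp5g2 and Ndufs4 were counted as higher. Each had another probe set called lower (-0.73 and -0.3), and those readings did not enter the count. Of 225 uncalled values of named members, 38 were called in some alternative and 89 changed sign. Most members are bright, so low signal limits mainly Cox8c (mean log2 5.57 and 5.26 in experiments 1 and 2) and the untested genes.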

Other observations

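Genes with 2 or more tested probe sets numbered 50 in experiment 1. In line 20b, 18 of them had a call at 1 probe set or more, 4 had every probe set called the same way, and 2 (Atp5g2 and Ndufs4) had calls both ways. Ndufa10 was called lower at its dimmer probe set in line 20b (-0.42), line 41 (-0.36) and Mbnl1-null (-0.46), while its brightest gave -0.06 (not called), -0.20 (called lower) and 0.21 (not called). Ndufab1, the acyl carrier subunit of complex I, ran from -0.96 (called lower) to 0.03 over its 5 probe sets in Mbnl1-null. The 2 probe sets of Cox6a1 were called together in Clcn1-null (0.91 and 1.04), as were the 3 of Cox7a2l in Mbnl1-null (0.41 to 0.44). Which transcript end or isoform each probe set reads was not tested here.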
